A study of Mus musculus with 5 samples.

Results

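The brown fat programme is a set of 10 genes, Ucp1, Cidea, Prdm16, Ppargc1a, Dio2, Elovl3, Cox8b, Cox7a1, Ppara and Cpt1b, that are associated with brown adipocytes. They were followed in sciatic nerves because the study removed Ebf2. A gene was taken where a probe set of the deposited table carried its symbol and no other. This gave 6 genes with 1 probe set each among 10361 probe sets: Ppara, Ppargc1a, Cidea, Elovl3, Cox8b and Cox7a1. Cpt1b has a probe set that carries another symbol as well, so no value is given for it, and Ucp1, Prdm16 and Dio2 are not analysed here. The 6 genes are thus not the whole programme.

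The study compared sciatic nerves of mouse pups that carry Ebf2 (Ebf2+/+, wild type, WT) with nerves of pups that lack it (Ebf2-/-, KO), all on the C57Bl6N background, at postnatal day 2. The pups came from crosses between heterozygous parents, and 12 nerves of 1 genotype were combined in each pool. There were 3 WT pools, numbered 1, 9 and 11, and 2 KO pools, numbered 2 and 4, each measured on 1 Affymetrix whole-transcript array. The labels give the knockout as the genotype of the pup and name no Cre or promoter that would limit it to a cell type, and they do not name the missing exons. Levels are log2 values as deposited, and a difference is the KO mean minus the WT mean on that scale with its standard error (SE).

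Brown adipocytes burn fatty acids to make heat. Their mitochondria carry the uncoupling protein Ucp1, and their fate is set by Ebf2 together with Prdm16 and the nuclear receptor Pparg, which open chromatin at brown fat genes such as Ppara and Cidea. The same coactivator, Ppargc1a, drives mitochondrial genes in muscle, and the Cox7a1 and Cox8b subunits of cytochrome c oxidase are made in striated muscle as well as in brown fat. A sciatic nerve is made mainly of axons, Schwann cells and connective tissue sheaths, with adipocytes in the tissue around it.

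The promoter windows of Cox8b and Cox7a1 are shown because these 2 members varied together across the pools. A site near Ppara is shown because the Ppara genotypes did not overlap, 1 of 6 members, where 13.3% of all probe sets lay wholly lower in KO. With each array centred at its own median the Ppara groups overlapped. Of the 6 members, 4 have a promoter in the RefSeq table (build GRCm38.p6), namely Ppargc1a, Cox7a1, Cox8b and Ppara. The sequences run 5′ to 3′ on the strand of the gene and end at the base before the annotated start, except that of Ppara, which is 30 bases around a match. Capitals mark motif matches.
Cox8b, chr7:140900447-140900696, minus strand: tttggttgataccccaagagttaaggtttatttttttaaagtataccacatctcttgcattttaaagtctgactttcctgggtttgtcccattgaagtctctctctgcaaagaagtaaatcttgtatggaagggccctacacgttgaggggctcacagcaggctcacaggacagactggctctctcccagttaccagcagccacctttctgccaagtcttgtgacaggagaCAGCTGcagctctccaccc
Cox7a1, chr7:30183921-30184170, plus strand: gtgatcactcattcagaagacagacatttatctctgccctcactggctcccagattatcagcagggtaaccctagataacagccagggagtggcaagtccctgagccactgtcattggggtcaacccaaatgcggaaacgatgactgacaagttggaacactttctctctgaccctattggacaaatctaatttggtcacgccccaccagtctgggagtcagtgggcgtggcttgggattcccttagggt
Ppara, chr15:85735639-85735668, plus strand: agcctcaggtgCCCAGGGGctggagggcac

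In these windows of 250 bases before the start, 3 motifs were searched on both strands, none of which overlaps another. CCCNNGGG, the palindromic core of the sites that early B cell factors bind, was in the Ppara promoter, 1 of the 4, and in 11.8% of all 32851 promoters of the table. The E-box CAGCTG, a site of muscle basic helix-loop-helix factors, began at position -19 from the Cox8b start and was in 13% of all promoters. AGGTCA, the half-site of nuclear receptors such as Ppara, was in 0 of the 4 windows and in 14% of all promoters. A match describes the letters only.

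None of the 6 genes passed the test between genotypes, and the 2 muscle-type cytochrome c oxidase genes differed more between WT pools than between genotypes. At adjusted p below 0.05 in limma, 0 of 6 were called in either direction, against 0.676% of all probe sets (70 of 10361, with 36 or 0.347% higher and 34 or 0.328% lower in KO). At unadjusted p below 0.05 there was 1 of 6 (16.7%), Cox8b, against 14.3% of all probe sets. A fit without moderation of the variances called 0 of all 10361 probe sets, and so not Ebf2 either. Its count of 0 therefore says nothing about the members. All 6 differences were negative, with a median of -0.34 beside -0.002 over all probe sets. Against WT pool 1 alone the median of the 6 was 0.01, with Ppara, Ppargc1a and Elovl3 still negative and Cidea, Cox8b and Cox7a1 positive. Only Ppara had groups that did not overlap, 1 of 6, where 13.3% of all probe sets lay wholly lower in KO. In bulk nerve, fewer cells of a type and less RNA per cell cannot be told apart.

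**Figure D1:**
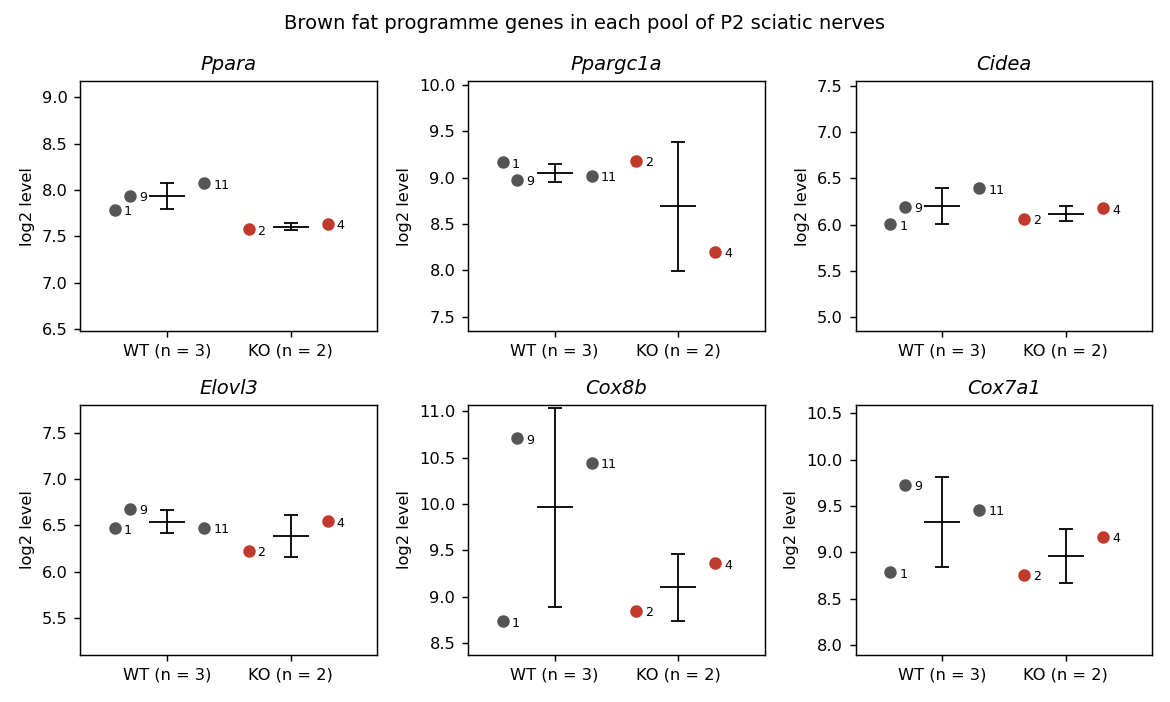
Log2 level (vertical axis, the same span in every panel) of the 6 genes in each pool, with pool numbers beside the points, WT in grey and KO in red. Bars show the mean and SD; the Ppara groups do not overlap, Ppargc1a is low in KO pool 4 alone, and Cox8b and Cox7a1 are high in WT pools 9 and 11.

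Ppara encodes the fatty acid receptor that switches on the oxidation of fatty acids. WT pools 1, 9 and 11 had log2 levels of 7.79, 7.94 and 8.08, and KO pools 2 and 4 had 7.58 and 7.64. Both KO pools lay below every WT pool, the nearest pair being WT pool 1 and KO pool 4. The WT mean was 7.94 ± 0.14 (SD, n = 3) and the KO mean 7.61 ± 0.04 (SD, n = 2), a difference of -0.33 (SE 0.17, 95% interval -0.68 to 0.02), and Ppara did not pass (limma adjusted p = 0.387). The exact two-sided permutation test over the 10 ways to choose 2 of the 5 pools gave p = 0.2, where the smallest p that this design allows is 0.1. The difference was -0.18 against WT pool 1 alone. With every array centred at its own median the Ppara groups overlapped, and the difference was -0.27.

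Ppargc1a encodes the coactivator PGC-1alpha, which raises the making of mitochondria and acts with the PPAR receptors. WT pools 1, 9 and 11 read 9.17, 8.98 and 9.02, KO pool 2 read 9.19 and KO pool 4 read 8.20. KO pool 2 was the highest of the 5 pools and KO pool 4 the lowest, so the KO pools spread further (SD 0.70, n = 2) than the WT pools (SD 0.10, n = 3). The difference of -0.36 (SE 0.22, limma adjusted p = 0.463) came from KO pool 4 and was 0.13 without that pool. The median of all probe sets was lowest on the same array, 8.93 against 9.04 to 9.11 on the others, and whether this bears on Ppargc1a was not tested beyond centring each array, which gave -0.30.

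Cidea and Elovl3 act on lipid in brown fat, Cidea as a protein of the lipid droplet and Elovl3 as an elongase of very long fatty acids that is also made in the sebaceous glands of skin. For Cidea WT pools 1, 9 and 11 read 6.004, 6.194 and 6.393, and the KO values of 6.062 (pool 2) and 6.174 (pool 4) lay within the WT range. Its difference was -0.08 (SE 0.17, 95% interval -0.44 to 0.28, limma adjusted p = 0.825). Elovl3 read 6.47, 6.68 and 6.47 in WT and 6.22 and 6.54 in KO, with KO pool 2 lowest and KO pool 4 inside the WT range, and differed by -0.16 (SE 0.17, 95% interval -0.52 to 0.20, limma adjusted p = 0.677). The mean signals of Cidea and Elovl3 stood at the 8.07 and 10.5 percentiles of the probe sets in the table, which is a rank of signals and not of transcripts, and no detection calls were used here. For Cidea the direction turned to 0.11 against WT pool 1 alone and to 0.02 without WT pool 11, and for Elovl3 the value was 0.001 without KO pool 2.

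Cox8b and Cox7a1 encode small subunits of cytochrome c oxidase, the last complex of the respiratory chain, in the forms found in striated muscle and brown fat. Cox8b read 8.73 in WT pool 1, 10.71 in WT pool 9, 10.45 in WT pool 11, 8.85 in KO pool 2 and 9.36 in KO pool 4. WT pools 9 and 11 were high and WT pool 1 was the lowest of all, so the KO pools lay inside the WT range. Its difference was -0.86 (SE 0.36, 95% interval -1.60 to -0.12, limma unadjusted p = 0.0250), a 1.81-fold lower level, which did not pass over all probe sets (limma adjusted p = 0.269, exact two-sided permutation p = 0.4). This SE and interval rest on moderation of the variances. Without moderation the SE was 0.82 (unadjusted p = 0.373), and with a robust prior 0.79 (limma unadjusted p = 0.351). Against WT pool 1 alone the difference turned to 0.37, and with 1 pool left out it ran from -1.47 without WT pool 1 (limma adjusted p = 0.0721) to -0.49 without WT pool 9 (limma adjusted p = 0.831).

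Cox7a1 was likewise highest in WT pools 9 and 11, with smaller steps between the pools. WT pools 1, 9 and 11 read 8.79, 9.73 and 9.46, and KO pools 2 and 4 read 8.76 and 9.17, with KO pool 2 just below WT pool 1 and KO pool 4 inside the WT range. The difference was -0.36 (SE 0.22, 95% interval -0.83 to 0.10, limma adjusted p = 0.470), and 0.18 against WT pool 1 alone. Without WT pool 9 it was -0.16, without KO pool 2 -0.16, without KO pool 4 -0.57, and without WT pool 1 -0.63.

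**Figure D2:**
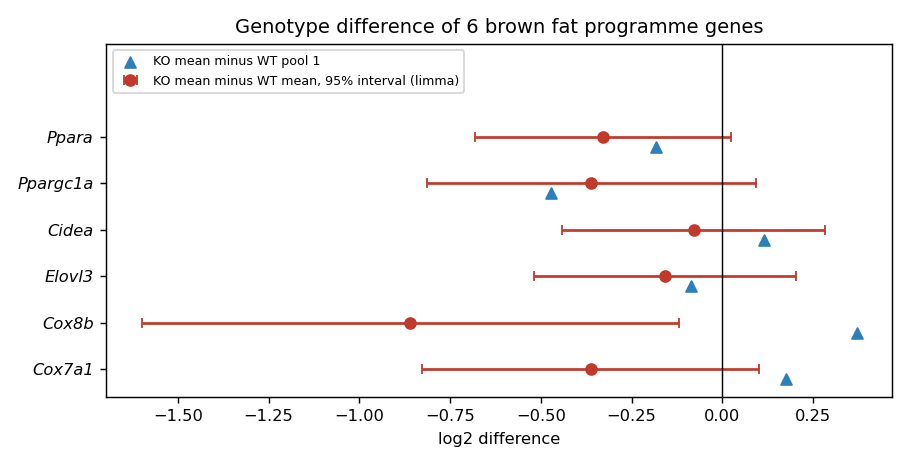
Log2 difference (horizontal axis) of each gene between KO and WT means with its 95% interval from limma (red circles), and between the KO mean and WT pool 1 alone (blue triangles). Of the 6 intervals, 5 include 0, and the triangles of Cidea, Cox8b and Cox7a1 lie on the other side of 0 from their circles. The intervals use moderated variances, and without moderation the SE of Cox8b was 0.82.

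Skeletal muscle genes, like Cox8b and Cox7a1, were on average highest in WT pools 9 and 11. The mean of 49 measured muscle genes, of 50 listed, was 9.02 in WT pool 1, 10.30 in WT pool 9, 10.21 in WT pool 11, 9.45 in KO pool 2 and 9.66 in KO pool 4. Of these, 48 (98.0%) were higher in both WT pool 9 and WT pool 11 than in WT pool 1, against 34.1% of all probe sets and 5 of the 6 brown fat programme genes. None of the 49 passed between genotypes in limma. At unadjusted p below 0.05 there were 5 (10.2%), against 14.3% of all probe sets. The differences ran from -0.82 for Tnnc2, a troponin of fast muscle, to 0.43 for Myh7, the slow myosin heavy chain. Their median was -0.33, turning to 0.51 against WT pool 1 alone.

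Cox8b exceeded its own WT pool 1 level by 1.98 and 1.71 in WT pools 9 and 11, and by 0.12 and 0.63 in KO pools 2 and 4. The muscle mean exceeded its WT pool 1 level by 1.28, 1.20, 0.43 and 0.65 in the same order. Cox7a1 differed from its WT pool 1 level by 0.94, 0.67, -0.03 and 0.38, so in KO pool 2 it did not rise with the muscle mean. Set against the muscle mean of its own array, Cox8b ranged over 1.01 log2 units across the pools and Cox7a1 over 0.52, where the raw ranges were 1.98 and 0.97. On that footing Cox8b was 0.57 lower in KO and Cox7a1 0.08 lower, with no test. How far muscle in the pools accounts for either gene was not tested. Keratinocyte genes, given below, were on average also highest in WT pools 9 and 11, and their part was not tested either.

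**Figure D3:**
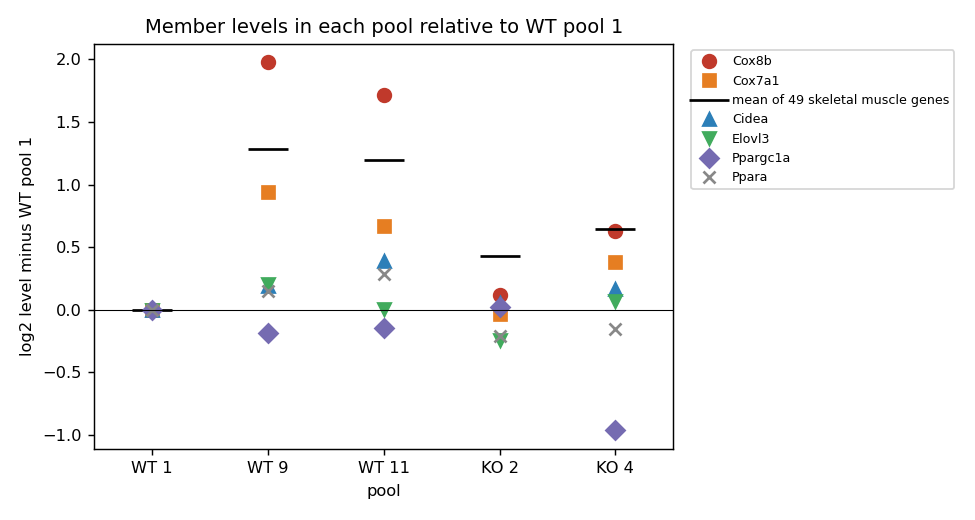
Log2 level minus that of WT pool 1 (vertical axis) in each of the 5 pools for the 6 genes and for the mean of 49 skeletal muscle genes (black bars). Cox8b, Cox7a1 and the muscle mean are highest in WT pools 9 and 11, Ppargc1a is 0.96 lower in KO pool 4, and Ppara is below its WT pool 1 level only in the KO pools.

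The genes most like each member were found by the Euclidean distance between profiles of the 5 log2 values, each centred on its own mean, among 9407 genes with 1 symbol. Nearest to Cox8b were Tnnc2 (distance 0.18), Myoz1, for a protein of the muscle Z-disc (0.22), and Lce1e, for a cornified envelope protein of skin (0.23). Of the 50 genes nearest to Cox8b, 21 were among the 49 muscle genes, against 3 for Cox7a1 and 0 for each of the other 4 members. Genes of the other lists were not counted among the neighbours. Nearest to Cox7a1 were Lrrc39, a gene of striated muscle (0.09), Pkp1, for a desmosomal plakophilin (0.14), and Adssl1, the muscle adenylosuccinate synthase (0.14). Ppara was nearest to Sccpdh, Vmn1r86 and Osr2 (0.05 to 0.09), and Ppargc1a to Ccdc122, Orc5 and Ttc30b (0.07 to 0.08). Cidea was nearest to Mir320, Tyr and Olfr781 (0.05 to 0.06), and Elovl3 to Cd320, Vmn2r81 and Smoc1 (0.06 for each). These distances rest on 5 arrays, and a member that varies little has many near neighbours.

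Relatives of the members by family were measured for 19 of 31 listed genes, of which 1 fell, 0 rose and 18 did not pass (median -0.16, and 0.01 against WT pool 1 alone). The fall was Elovl7, an elongase of fatty acids, at 10.26, 10.85 and 10.53 in WT and 9.60 and 9.39 in KO pools 2 and 4 (difference -1.05, SE 0.19, limma adjusted p = 0.0111). The calls of Elovl7 and, below, of Angptl4, Egr2, Ebf1 and Ebf2 were all lost without WT pool 1, though with the same directions. Directions also held without either KO pool and with WT pools 9 and 11 as a block. There 1 pool stood for a genotype, so a call could not be judged. Without WT pool 9, after median centring and after quantile normalisation Ebf2 alone of the 5 was called, and Ebf1 was also lost without WT pool 11. Egr2 was lost with the robust prior (limma adjusted p = 0.0661) and Angptl4 with array weights (-0.76, limma adjusted p = 0.0939). A fit without moderation called none of the 5 and 0 of all probe sets. The values without KO pool 4 were -0.94 for Elovl7, -0.74 for Angptl4, -0.65 for Egr2, 0.67 for Ebf1 and -2.12 for Ebf2. The other elongases did not pass, with Elovl6 at -0.47 and Elovl1 at -0.33, and with Elovl5 at 0.42 and Elovl4 at 0.53. All KO pools of Elovl7, Elovl6 and Elovl1 lay below all WT pools, and those of Elovl4 and Elovl5 above, while the groups of Elovl3 overlapped. With Cox7a2l and Prdm8 included, 4 of the 19 relatives lay wholly lower in KO (21.1%) and 3 wholly higher (15.8%). Over all probe sets the shares were 13.3% and 17.5%.

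Cox6a2, the muscle form of another cytochrome c oxidase subunit, read 8.72, 9.89 and 9.85 in WT and 8.97 and 9.33 in KO, high in the same 2 WT pools as Cox8b (difference -0.34, SE 0.26). The uncoupling protein gene Ucp3, which is strongest in muscle, was at -0.38 (SE 0.24) and 0.14 against WT pool 1 alone. Cox7a2l, which helps respiratory complexes to assemble, was at -0.16 (SE 0.17). Ppargc1b, the sister coactivator of Ppargc1a, was at -0.21 (SE 0.18), and 0.01 against WT pool 1 alone. Of the carnitine palmitoyltransferases that carry fatty acids into mitochondria, Cpt1a was at -0.23 (SE 0.17) and Cpt2 at -0.33 (SE 0.19). Cpt1c, the neuronal member of the family, was at 0.18 (SE 0.18). The lipid droplet genes Cidec and Cideb were at -0.12 and -0.06, and the deiodinase gene Dio3, whose enzyme inactivates thyroid hormone, at -0.16. Of the genes related to Prdm16, Mecom was at 0.16, Prdm1 at -0.17, Prdm6 at 0.17 and Prdm8 at 0.18.

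Regulators of brown fat were measured for 31 of 48 listed genes: 1 fell, 1 rose and 29 did not pass (median 0.15, or 0.08 against WT pool 1 alone). The fall was the removed gene Ebf2 itself, at 11.55, 11.14 and 11.40 in WT and 9.25 and 8.74 in KO (difference -2.37, SE 0.19, limma adjusted p = 4.97e-07). The rise was its relative Ebf1 (0.75, SE 0.17, limma adjusted p = 0.0445), with 11.45, 11.15 and 11.32 in WT and 11.98 and 12.12 in KO. Ebf3, the third early B cell factor measured, was at 0.64 (SE 0.18, limma adjusted p = 0.0933). In 4 of the 31 genes (12.9%), Ebf2 included, both KO pools lay below every WT pool, where 13.3% of all probe sets did so. In 11 of the 31 (35.5%) both KO pools lay above every WT pool, where 17.5% of all probe sets did so. Among these 11, chosen after their values were seen, were Tbx15, a T-box factor of adipocytes and limb (0.69, SE 0.17, limma adjusted p = 0.0639), the growth factor gene Bmp4 (0.50, SE 0.18), Nrip1, a corepressor that restrains Ucp1 (0.38, SE 0.18), and Zfp423, a factor that holds adipocytes in the white state (0.15, SE 0.17). The rest of the 11 were Ebf1, Ebf3, Klf11 (0.51, SE 0.19), Sirt1 (0.31, SE 0.18), Hoxc10 (0.24, SE 0.17), Nrf1 (0.20, SE 0.17) and Rxra (0.15, SE 0.17).

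Other genes of brown or beige fat identity were measured for 21 of 37 listed genes, Ebf2 included. Besides the fall of Ebf2, 0 passed in limma (1 at unadjusted p below 0.05), with a median of -0.02 that was 0.04 after median centring and 0.13 against WT pool 1 alone. The list ran up to Acot2, a mitochondrial acyl-CoA thioesterase, at 0.40 (SE 0.18). Adipocyte markers were measured for 22 of 30 listed genes, and 0 passed in either direction in limma (3, or 13.6%, at unadjusted p below 0.05, against 14.3% of all probe sets). They ran from Aqp7, the glycerol channel of fat cells, at -0.70 (SE 0.24) to the imprinted gene Mest at 0.24, with a median of -0.12 that was 0.09 against WT pool 1 alone. Adipoq, for the fat cell hormone adiponectin, read 6.29, 7.39 and 7.07 in WT and 6.39 and 6.61 in KO, so it too was high in WT pools 9 and 11 (chosen after its values were seen). The mean of the 22 adipocyte genes was 8.95, 9.35 and 9.20 in WT and 9.01 and 9.02 in KO, and 15 of 22 (68.2%) were higher in both WT pools 9 and 11 than in WT pool 1. Its part in the members' values was not tested.

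Genes of fatty acid oxidation, the pathway that Ppara drives, were measured for 17 of 38 listed genes: 1 fell, 0 rose and 16 did not pass. The fall was Angptl4, a secreted inhibitor of lipoprotein lipase that the PPAR receptors induce, with a WT mean of 9.57 ± 0.40 (SD, n = 3) and 8.83 and 8.39 in KO pools 2 and 4. Its difference was -0.96 (SE 0.21, limma adjusted p = 0.0359), and -0.90 against WT pool 1 alone. Of the 17, 14 were lower in KO (82.4%, against 50.2% of all probe sets), and in 9 both KO pools lay below every WT pool, where 13.3% of all probe sets did so. These 9 included, chosen after their values were seen, Etfb, for an electron carrier of the pathway (-0.39, SE 0.18), Acads and Acadm, for acyl-CoA dehydrogenases (-0.33 and -0.21), and Hadha, for the trifunctional protein (-0.17). Acot2 had the largest positive difference. The median was -0.21 and stayed negative against WT pool 1 alone (-0.16) and without any 1 pool (-0.27 to -0.14), with 14 of 17 lower against WT pool 1 as well. The 9 non-overlapping genes were 10 after median centring and 10 after quantile normalisation, where all probe sets stood at 17.9% and 19.2%. At unadjusted p below 0.05 in limma there were 3 of the 17 (17.6%), against 14.3% of all probe sets. Both KO pools also lay below every WT pool in 4 of 7 Schwann cell markers (57.1%) and 2 of 4 other cytochrome c oxidase genes (50%). That held for 1 of 49 muscle genes (2.04%) and 0 of 8 fibroblast genes. After median centring the counts of these 4 lists, in the same order, were 5, 0, 0 and 0. After quantile normalisation they were 5, 2, 1 and 0. Another 21 listed genes of fatty acid oxidation are not analysed here.

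**Figure D4:**
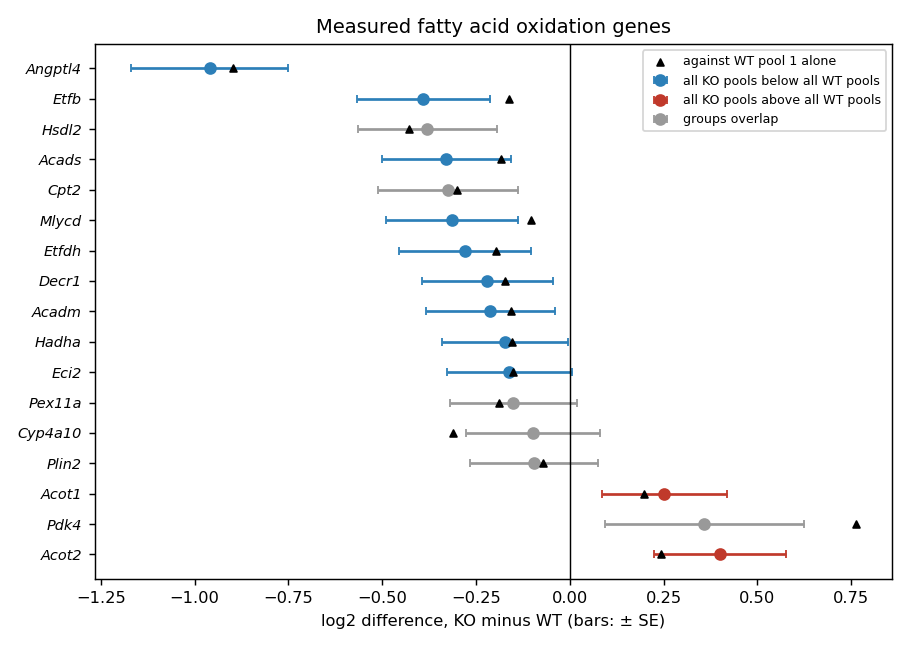
Log2 difference (horizontal axis, bars ± SE from limma) of the 17 measured fatty acid oxidation genes, coloured by whether the KO and WT pools overlap, with the difference against WT pool 1 alone as black triangles. In 14 genes the difference is negative, and Angptl4 at -0.96 is the 1 that passed.

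Cytochrome c oxidase subunits of the other kinds were measured for 4 of 17 listed genes (Cox6a2, Cox7a2l, Cox5a and Ndufa4), all higher in WT pools 9 and 11 than in WT pool 1, and 0 passed in limma (0 at unadjusted p below 0.05, median -0.16). They ran from Ndufa4 at -0.15 to Cox6a2 at -0.34.

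Markers of the cell types that a nerve pool can hold were set beside these values. Schwann cell markers averaged 11.47, 11.53 and 11.48 in WT and 11.38 and 11.00 in KO (7 of 12 measured), with 1 fall, Egr2, a factor of myelination (-1.13, SE 0.22, limma adjusted p = 0.0181), and the largest positive difference for the receptor gene Gfra3 (0.47). Keratinocyte genes averaged 7.40, 8.99 and 8.42 in WT and 7.42 and 7.64 in KO, and 16 of 17 were higher in WT pools 9 and 11 than in WT pool 1. They ran from Krt1 at -2.42 to Ivl at -0.12. Sebaceous gland genes, beside Elovl3, were measured for 4 of 13 and ran from Krt79 at -0.25 to Fads2 at 0.40. All 8 fibroblast genes (Dcn at 0.14 to Fbln1 at 0.58) and all 12 endothelial genes (Cldn5 at 0.01 to Kdr at 0.52) were higher in KO, with medians of 0.29 and 0.42. Both medians were 0.14 against WT pool 1 alone, where 11 of the 12 endothelial genes were higher and Cldn5 was at -0.15. Endothelial genes averaged 10.61, 10.24 and 10.22 in WT, where pools 9 and 11 were low, and 10.82 and 10.62 in KO. The 5 macrophage genes ran from Cx3cr1 at -0.36 to Adgre1 at 0.35. None of the keratinocyte, sebaceous, fibroblast, endothelial or macrophage genes passed in limma. At unadjusted p below 0.05 there were 7 of 17 keratinocyte genes (41.2%), 1 of 4 sebaceous (25%) and 2 of 8 fibroblast (25%). There were 7 of 12 endothelial genes (58.3%), 0 of 5 macrophage genes and 4 of 7 Schwann cell markers (57.1%), against 14.3% of all probe sets.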

How the data were processed

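Total RNA of pooled nerves was hybridised to Affymetrix arrays, 1 array per pool. The authors deposited log2 expression values, and RMA is the tool that the submitters' processing notes name. Settings, genome build and filters were not given in the sources used here. In every probe set the second-highest value lay at least 0.175 above the lowest, so genes of smaller spread are not analysed here.

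Names come from the platform annotation of 2016: 9411 of 10361 had 1 symbol, 384 several and 566 none listed. A gene with several probe sets was represented by the one with the highest mean. KO was compared with WT with limma 3.58.1 in R 4.3.3 (lmFit, eBayes, no covariates, 3 residual and 17.4 prior degrees of freedom), two-sided, with Benjamini-Hochberg adjustment over all probe sets, called at adjusted p below 0.05. The fit was tested on simulated data. The number of arrays limits the precision. The pools' animals are not stated to be separate litters, and p-values measure only the spread between pools, which may be technical in part.

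The members and gene lists were chosen with earlier results of these data known. Lists are described by counts and medians. Genes named by a rule set beforehand are all members and measured relatives, Ebf1 to Ebf3, called genes of the other lists with their largest positive and negative differences, and the 3 nearest profiles of each member. A few more were named outside this rule, to fill out a count or, where so marked, chosen after their values were seen. Alternatives were 2 scalings, 2 filters on low values, 3 variance settings, array weights, WT pools 9 and 11 as a block, each pool left out, and, chosen after seeing the data, both of these WT pools left out.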

Additional observations from a re-analysis of the deposited data

How the results depend on the processing

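The count of members called stayed at 0 in both directions under all 15 alternatives. That means little where 0 of all probe sets were called, as without moderation. The count of all probe sets called (70) did not hold. It was 1 after median centring and 1 after quantile normalisation (0 higher and 1 lower each time), 287 with the filter at the 50th percentile, 158 with a variance trend, 148 with a robust prior, 0 without moderation and 268 with array weights. With WT pools 9 and 11 as a block, or left out, it was 0, and with 1 pool left out it ran from 0 to 105. Directions turned for Cidea (0.114), Cox8b (0.3705) and Cox7a1 (0.175) with WT pools 9 and 11 as a block or left out. They also turned for Cidea without WT pool 11 (0.019), Elovl3 without KO pool 2 (0.0013) and Ppargc1a without KO pool 4 (0.131), where leaving out 1 pool gave down to -0.3167 for Elovl3 and -0.853 for Ppargc1a. The block leaves WT pool 1 as the only WT pool compared with KO, so its differences equal those with WT pools 9 and 11 left out. The pools left out set these changes by construction. Ppara stayed negative in all 14 alternatives that kept it (-0.42 to -0.18, adjusted p 0.212 to 0.921). The lowest adjusted p of Cox8b was 0.0537, with array weights. The filters dropped Cidea and Elovl3, and the stricter one Ppargc1a and Ppara as well. No paired analysis was possible because the labels give no litter or batch by which pools of the genotypes could be paired. No detection calls were used, so how far the dim signals of Cidea and Elovl3 stand above background is not known here.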
